A study of Mus musculus with 2 samples.

Results

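Expressed long intergenic noncoding RNAs (lincRNAs) of the adult mouse heart were taken from total RNA sequencing of 2 libraries, each from 1 adult male B6CASTF1/J mouse, the first-generation offspring of a C57BL/6J by CAST cross. The labels give both animals an age of 8 to 10 months and 300 ng of input RNA per library, with ribosomal RNA reduced, strand kept and ERCC spike-in RNA added. Replicate 1 is labelled as animal 2 and replicate 2 as animal 4, although both carry the same donor entry. No treatment, mutant or other tissue is present, so the data hold 1 group and no contrast between conditions.

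The genes were chosen by transcript type and by measured level: at least 1 transcript annotated as lincRNA, none annotated as protein coding, and at least 1 TPM (a transcript level corrected for length and scaled to a fixed sum per library) in each of the 2 heart libraries. H19, Airn, Meg3, Rian, Mirg, Kcnq1ot1, Snhg14 and Peg13, noncoding genes of imprinted loci, were left out by name. This selection gave 146 genes among 6053 genes of the lincRNA class and 55450 mouse genes in all. Since the levels selected the genes, they are given here as a description, with no test.

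Most lincRNAs are transcribed by the same polymerase as messenger RNAs and are often capped, spliced and polyadenylated, but carry no long conserved reading frame. Some work in the nucleus, where they build bodies such as paraspeckles or act on nearby genes. Others bind proteins or microRNAs in the cytoplasm, or serve mainly as precursors from whose introns snoRNAs or microRNAs are cut. In the heart the class is known for a few regulators of muscle and vessel cells, such as Carmn and Bvht.

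Most genes of the class were silent in these hearts. Of the 6053 genes, 4672 (77.2%) had no count in either library, and a further 1195 had counts but lay below 1 TPM in both. Another 36 genes reached 1 TPM in 1 library only. Of the 4 genes left out by name that belong to the class, 3 passed the level. The 4 genes just inside the threshold were 4632428C04Rik (1.00 and 1.64 TPM in replicates 1 and 2), Crnde (1.01 and 2.29), 3222401L13Rik (1.02 and 1.20) and A730063M14Rik (1.64 and 1.11). The 4 just outside were 1700108F19Rik (0.99 and 1.46 TPM), AC138790.3 (0.99 and 1.28), D930016D06Rik (0.99 and 1.33) and Gm12840 (1.80 and 0.99). The deposited credibility bounds reached below 1 TPM in at least 1 library for 26 of the 146 genes. For 3 genes, Gm26917, Gm42418 and 3110039I08Rik, the TPM lay outside its own bounds in both libraries.

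The 146 genes held 633485 expected counts in replicate 1 and 574272 in replicate 2, which is 1.51% and 1.44% of the total. The heart muscle markers (Myh6, Tnnt2, Actc1, Myl2, Pln and Ryr2) were all above 1 TPM and summed to 24985 TPM in replicate 1 and 27281 TPM in replicate 2. Endothelial markers (3 of 3 above 1 TPM) summed to 109.8 and 108.3 TPM, mural markers (3 of 3) to 123.2 and 124.0 TPM, and fibroblast markers (3 of 3) to 127.3 and 145.8 TPM. Vessel and connective tissue cells were thus read at like levels in both hearts. Erythroid markers (2 of 2) summed to 8102 TPM in replicate 1 and 4391 TPM in replicate 2. Of the 3 macrophage markers, Lyz2 had 88.2 and 29.2 TPM, while Csf1r (10.1 and 9.70 TPM) and C1qa (8.22 and 10.1 TPM) were close. Of the 3 lung epithelium markers, Scgb1a1 (15.6 TPM) and Bpifa1 (19.6 TPM) were read in replicate 1 and were at 0 in replicate 2, and Sftpc was at 0 in both. In bulk RNA, fewer cells of a type and less RNA per cell cannot be told apart.

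The 146 genes held 0.791% ± 0.0198 of all TPM (SD, n = 2 libraries), with 0.805% in replicate 1 and 0.777% in replicate 2. Their median level was 2.96 ± 0.233 TPM (SD of the 2 library medians), set beside 8.26 ± 0.0778 TPM for the 10764 protein-coding genes that passed the same threshold. Levels were steeply unequal: 5 genes had a mean of 100 TPM or more, 17 lay from 10 to under 100, 20 from 5 to under 10, 52 from 2 to under 5 and 52 below 2. The 4 highest genes held 85.6% ± 0.464 of the TPM of all 146, and the 2 highest held 70.9% ± 0.862. Without those 2 genes the share of the class in all TPM was 0.230% ± 0.0126.

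**Figure D1:**
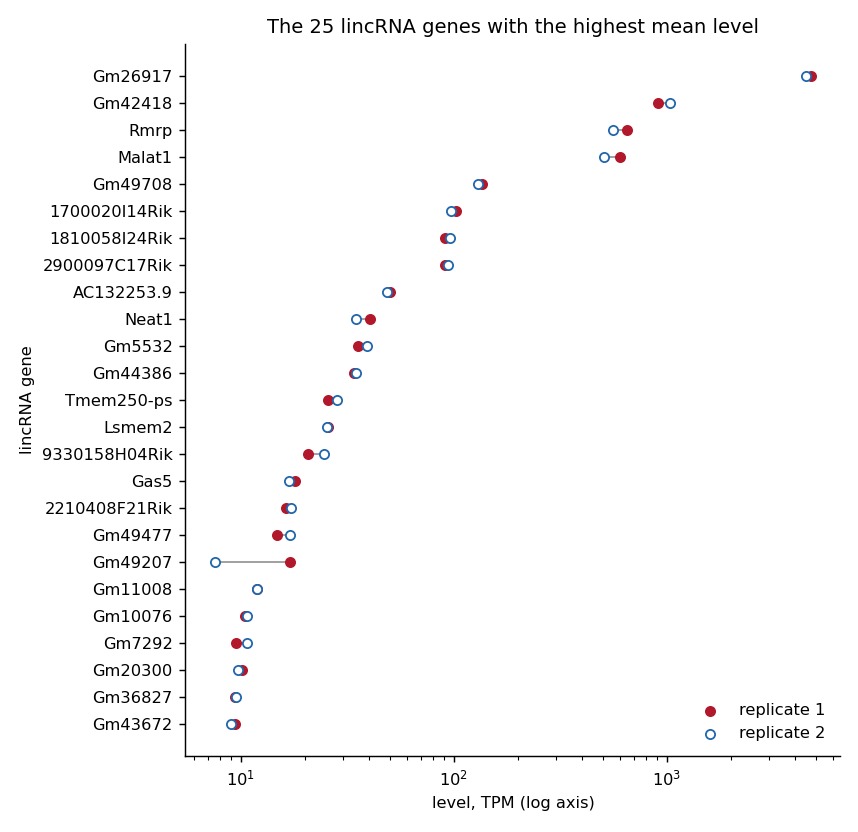
TPM on a log axis of the 25 lincRNA genes with the highest mean level, from the highest at the top to the lowest at the bottom, with a filled point for replicate 1 and an open point for replicate 2. Both animals lie close together on each line except for Gm49207, at 17 TPM in replicate 1 and 7.57 TPM in replicate 2.

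The 2 highest genes lie at a single ribosomal RNA locus on chromosome 17. Gm26917 (chr17:39843013-39846341, plus strand, mm10) had 4732 TPM in replicate 1 and 4506 TPM in replicate 2. Gm42418 (chr17:39846958-39848788, plus strand), which starts 0.617 kb downstream on the same strand, had 906 and 1029.5 TPM. RefSeq lists Gm42418 as Rn18s-rs5, a pseudogene related to the small-subunit ribosomal RNA, and GENCODE places a ribosomal RNA gene, CT010467.1, over it on the opposite strand. That ribosomal RNA gene had 2.61 and 3.42 TPM, and AY036118, a lincRNA model also on the opposite strand, had 0.03 and 0 TPM. These opposite-strand genes had 57.1 and 69 counts and 0.92 and 0 counts, against 54586 and 58511 counts for Gm42418. The part that leftover ribosomal RNA plays in the level of this pair was not tested.

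The third gene was Rmrp, the RNA subunit of the RNase MRP ribonuclease, which processes ribosomal RNA precursors. It had 652 TPM in replicate 1 and 560 TPM in replicate 2. A second gene model of the ribozyme type, also named Rmrp, lies inside it on the same strand (chr4:43492788-43493058 within chr4:43492783-43493063, minus strand), and 96.0% of the 31-base words of the lincRNA model recur there. The sequence is shown because the models are nearly identical and the quantifications split them differently. It is the GENCODE M21 transcript, and capitals mark the 271 of 281 bases that the ribozyme model also holds.
Rmrp: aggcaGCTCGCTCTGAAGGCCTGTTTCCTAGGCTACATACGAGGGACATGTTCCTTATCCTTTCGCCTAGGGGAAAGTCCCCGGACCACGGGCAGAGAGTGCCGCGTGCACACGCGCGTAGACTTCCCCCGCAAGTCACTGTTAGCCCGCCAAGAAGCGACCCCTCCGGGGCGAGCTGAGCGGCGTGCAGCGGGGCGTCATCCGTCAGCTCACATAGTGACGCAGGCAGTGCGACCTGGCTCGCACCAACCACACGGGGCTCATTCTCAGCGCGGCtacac
In the RSEM-layout table the ribozyme model had another 558 and 546 TPM, so that both models together came to 1158 ± 73.8 TPM (SD, n = 2). In the second quantification the ribozyme model was listed at 0 and the lincRNA model at 1392 ± 150.3 TPM.

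Nuclear body and chromatin lincRNAs ranged from among the most abundant to undetected. Malat1, which localises to nuclear speckles, had 602 TPM in replicate 1 and 505 TPM in replicate 2, and averaged 303 TPM in the second quantification. Neat1, the scaffold of paraspeckles and a neighbour of Malat1 22.04 kb away on the same strand of chromosome 19, had 40.2 and 34.7 TPM. Lncpint, a p53-induced RNA that interacts with Polycomb proteins, had 8.51 and 8.12 TPM. These were 3 of the 14 class genes on that list, and the other 11 lay below the level. Among those, Pvt1 had 0.53 and 0.77 TPM, Jpx 0.47 and 0.51 TPM and Ftx 0.51 and 0.46 TPM, the last 2 being activators of Xist. Xist itself, the silencer of the inactive X chromosome in females, had 0.03 TPM (3 counts) in replicate 1 and 0 TPM (1 count) in replicate 2 of these male hearts. Hotair, Hottip, Pantr1 and Paupar had no count.

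Conserved lincRNAs with a known function differed widely in level. 1700020I14Rik, which RefSeq names Oip5os1 and lists under the synonym Cyrano, a conserved RNA that promotes the decay of miR-7, had 102 TPM in replicate 1 and 97.4 TPM in replicate 2. Its protein-coding neighbour 2.01 kb away, Oip5, a centromere protein gene, had 0.12 and 0.28 TPM. 1810026B05Rik, named Chaserr in RefSeq and known as a repressor of the chromatin remodeller gene Chd2 beside it, had 7.95 and 9.84 TPM, and Chd2 averaged 13.6 ± 0.955 TPM. GENCODE M21 lets the 2 genes overlap on the same strand, and 29.9% of the 31-base words of 1810026B05Rik occur in Chd2 transcripts, so part of its level is uncertain.

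2900097C17Rik, named Norad in RefSeq, had 90.9 and 93.4 TPM. Norad is a cytoplasmic RNA that holds Pumilio proteins, which repress messenger RNAs. Its 4915-base transcript carries the Pumilio element TGTANATA, searched on the transcript strand only, at 11 positions from base 651 to base 3526. This is 2.24 per kilobase. All 146 genes pooled, with Norad and the related Gm7292 included, had 0.215 per kilobase over their longest transcripts. The 5903 class genes below the level had 0.120. Among transcripts of 1 kb or more the median was 0 per kilobase in both groups. At least 1 element was present in 41 of the 146 genes (28.1%) and in 819 of the 5903 (13.9%), which have shorter transcripts. Windows around 5 of the elements, with the element in capitals and the position of its first base in the transcript (GENCODE M21, gene at chr2:156388065-156392979, minus strand), are shown because the elements recur along the transcript; in 4 of these 5, and in 4 of all 11, the letters GGACA follow within 10 bases, a likeness seen after the sequences were read.
Norad at base 1147: gtaaacatgcTGTAAATAcctttttgtt
Norad at base 1523: ctgactgctgTGTATATAgtggacaaca
Norad at base 1829: gtgtgtatacTGTATATAatggacaaat
Norad at base 2451: ctgtatatatTGTACATActggacaaac
Norad at base 2754: agtactactaTGTATATAggggacaaat
The gene with the second-highest number was Gm7292 on chromosome 6, with 9 elements in 2527 bases. It shares 85.9% of its 31-base words with 2900097C17Rik. Gm7292 had 9.48 and 10.7 TPM in the RSEM-layout table and averaged 8.05 TPM in the second quantification.

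Several of the abundant genes are listed as protein coding in RefSeq. RefSeq entries were found for 101 of the 146 genes, of which 89 are long noncoding RNAs there, 8 protein coding, 2 pseudogenes, 1 a transcribed pseudogene and 1 the RNase MRP RNA. 1810058I24Rik, whose RefSeq synonym is Stmp1, a small mitochondrial membrane protein, had 91.1 TPM in replicate 1 and 95.8 TPM in replicate 2. Tmem250-ps had 25.6 and 28.4 TPM. Lsmem2, a leucine-rich single-pass membrane protein gene, had 25.8 and 25.4 TPM. The other 5 (Gm37494, Gm39469, Gm46430, Gm5165 and Gm38399, which RefSeq counts as part of the neuron navigator gene Nav1) had means from 1.38 to 4.58 TPM. On the list of small peptide genes, 2 of 12 genes found were among the 146, 1810058I24Rik and 1110038B12Rik (2.80 and 2.35 TPM), and the remaining 10 belong to other transcript types.

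The remaining genes among the 25 highest are mostly unnamed models. Gm49708 had 136.0 TPM in replicate 1 and 129.6 TPM in replicate 2. AC132253.9 had 49.97 and 48.4 TPM. Gm49708 shares 43.1% of its 31-base words with AC132253.9, and 83.3% of the words of AC132253.9 occur in transcripts of other genes, so both levels depend on how shared reads were assigned. Gm5532 had 35.3 and 39.2 TPM, Gm44386 33.8 and 34.6 TPM, and 9330158H04Rik, which lies antisense to the muscarinic receptor gene Chrm2, 20.7 and 24.4 TPM. 2210408F21Rik, which meets Lncpint head to head on chromosome 6, had 16.3 and 17.2 TPM and Gm49477 14.8 and 17.02 TPM. Gm20300, Gm36827 and Gm43672 averaged 9.91, 9.42 and 9.17 TPM.

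Genes that host small RNAs were a recurring kind. A snoRNA or scaRNA gene lay inside 15 of the 146 genes on the same strand (10.3%), against 31 of the 5903 class genes below the level (0.525%). A microRNA gene lay inside 9 of the 146 (6.16%), against 66 of the 5903 (1.12%). The level selected the 146, so this difference is a description of which lincRNA genes are expressed in heart.

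The snoRNA hosts were moderately expressed. Gas5, whose introns carry C/D snoRNAs, was the highest in the RSEM layout, with 18.02 TPM in replicate 1 and 16.9 TPM in replicate 2. In the second quantification it averaged 26.03 TPM and AC121821.1, another host, 43.3 TPM. Snhg8 followed with 6.05 and 4.67 TPM, Snhg20 with 4.27 and 5.38 TPM, Snhg1 with 3.23 and 5.32 TPM (mean 7.35 TPM in the second quantification), Snhg6 with 3.71 and 3.20 TPM, and Snhg5 with 2.15 and 3.59 TPM. Epb41l4aos (2.43 and 1.63 TPM), Snhg12 (2.26 and 1.53 TPM) and Snhg18 (1.35 and 1.32 TPM) were the lowest of the 9 listed hosts among the 146. On that list 12 genes belong to the class, and the other 3, Dancr (0.71 and 0.78 TPM), Snhg10 (0.98 and 0.36 TPM) and Snhg17 (0.54 and 0.60 TPM), stayed below the level. Of the 38 snoRNA and scaRNA genes inside the 146, only 7 were above 0 in both libraries. All 10 inside Gas5 were listed at 0, while Snord22 inside Snhg1 had 29.7 and 23.3 TPM, the scaRNA Gm26083 inside Snhg20 had 22.7 and 20.9 TPM, and Snora74a inside AC121821.1 had 221 and 223 TPM. These are levels of the small RNA genes as deposited and hold mature RNA and host fragments without distinction.

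Host genes of snoRNAs are known for transcripts that begin with a pyrimidine tract, as ribosomal protein messages do. RefSeq promoters (GRCm38.p6) that begin within 1 kb of the GENCODE start were found for 12 of the 15 hosts. In 8 of these 12 (66.7%) an unbroken run of 5 or more C or T began within 5 bases of the annotated start, against 26.4% of all 32851 promoters of the table and 36.2% of the 69 lincRNA genes with such a promoter. The 30 bases around the start are shown for 6 of the 8, with the run in capitals and the annotated start at the 11th base.
Snhg8 (chr3:123508317-123508346, minus strand): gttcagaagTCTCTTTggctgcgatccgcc
Snhg1 (chr19:8723477-8723506, plus strand): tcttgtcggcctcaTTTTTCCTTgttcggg
Snhg12 (chr4:132308668-132308697, plus strand): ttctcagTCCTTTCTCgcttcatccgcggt
1110038B12Rik (chr17:34952452-34952481, minus strand): gcggcacacgggTCTCTTTgtgcacccgcc
Snhg18 (chr15:32244643-32244672, minus strand): cccaggCCCCTCCTCTagccccgcctcttc
AI506816 (chr5:23712648-23712677, minus strand): cctggcgccctgCTCTTCCgccgcggcgcg
Gas5 had only 3 such bases beside its RefSeq start, which lies 179 bases from the GENCODE start.

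**Figure D2:**
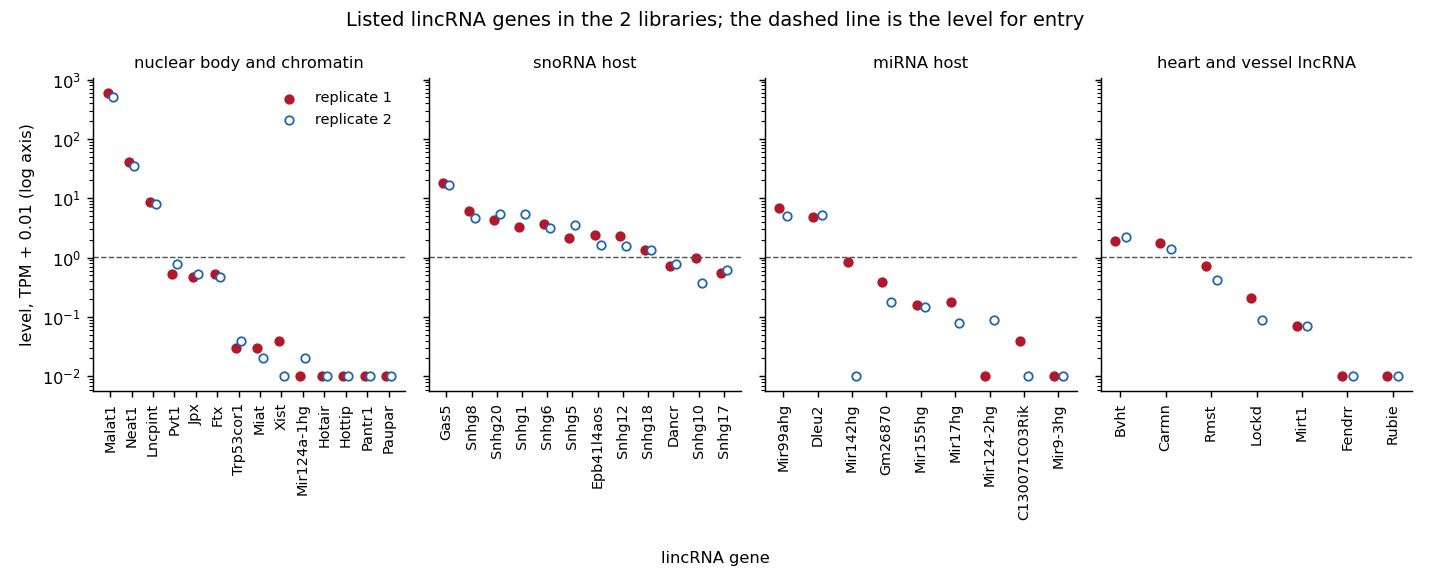
TPM + 0.01 on a log axis of the class genes on 4 lists, each sorted from high to low, with a filled point for replicate 1 left of an open point for replicate 2, and a dashed line at the entry level of 1 TPM. Malat1 and Neat1 stand far above the other nuclear genes, 9 of 12 snoRNA hosts lie above the line, and, with genes matched by symbol only, 2 lie above it on each of the microRNA host and heart lists.

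The microRNA hosts had low to moderate levels in the RSEM layout. Mir99ahg had 6.76 TPM in replicate 1 and 5.01 TPM in replicate 2, and Dleu2, host of miR-15a and miR-16-1, which restrain cell division, had 4.83 and 5.30 TPM. Matched by symbol, these were 2 of the 9 class genes on the list, and the other 7 were below the level, among them Mir17hg (0.17 and 0.07 TPM) and Mir155hg (0.15 and 0.14 TPM). RefSeq names and synonyms add 3 listed hosts that GENCODE M21 carries under another symbol, 3110039I08Rik (Mir100hg), Lncppara (Mirlet7bhg) and Carmn (Mir143hg). 3110039I08Rik had 2.28 and 2.32 TPM, which lies below its own deposited credibility bounds (3.14 to 4.66 and 3.27 to 4.81 TPM), and Lncppara had 2.15 and 2.07 TPM. The other genes with a microRNA gene inside were A330023F24Rik (2.19 and 1.99 TPM), Gm27028 (1.44 and 1.73 TPM), 2900076A07Rik (1.66 and 1.19 TPM), AC121821.1 (1.89 and 1.91 TPM) and the snoRNA host Snhg20. Every microRNA gene inside the 146 was listed at 0 in both libraries, so the hosts were measured and the microRNAs were not.

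Mature sequences from RefSeq (GRCm38.p6) were collected for 8 of the 9 genes with a microRNA gene inside. They carry 26 names with 21 distinct seeds, where the seed is bases 2 to 8, by which a microRNA pairs with its targets. The remaining host is not covered, so these counts are not totals over the 146 genes. The sequences are shown because 3 seeds recur in more than 1 of the covered hosts. The seed is in capitals. The let-7 seed occurs in Mir99ahg and again at 2 places in Lncppara, and 3110039I08Rik holds the let-7 gene Mirlet7a-2, of which only the 3p arm was matched here.
mmu-let-7c-5p (Mir99ahg and Lncppara): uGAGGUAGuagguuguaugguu
mmu-let-7b-5p (Lncppara): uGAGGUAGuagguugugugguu
The miR-99 seed and miR-125b occur in both Mir99ahg and 3110039I08Rik, in the same order along the gene.
mmu-miR-99a-5p (Mir99ahg): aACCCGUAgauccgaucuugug
mmu-miR-100-5p (3110039I08Rik): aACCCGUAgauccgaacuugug
mmu-miR-125b-5p (Mir99ahg and 3110039I08Rik): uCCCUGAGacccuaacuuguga
A330023F24Rik carries a pair of the miR-29 family, known as repressors of collagen genes, and Dleu2 a pair of the miR-15 family.
mmu-miR-29b-3p (A330023F24Rik): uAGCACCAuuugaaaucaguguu
mmu-miR-29c-3p (A330023F24Rik): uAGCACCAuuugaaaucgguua
mmu-miR-15a-5p (Dleu2): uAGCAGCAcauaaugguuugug
mmu-miR-16-5p (Dleu2): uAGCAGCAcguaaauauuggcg
Gm27028 holds miR-30c, a microRNA of heart muscle.
mmu-miR-30c-5p (Gm27028): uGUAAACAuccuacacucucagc

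Class genes on the list drawn up for heart and vessel lincRNAs were low, though not every name on it stands for a heart or vessel function. Of 27 names on that list, 11 were found in the annotation under those symbols and 7 of these belong to the class. Bvht, required in mouse for cardiac fate in embryonic cells, had 1.92 TPM in replicate 1 and 2.18 TPM in replicate 2. Carmn, which lies 2.15 kb from Bvht on the opposite strand of chromosome 18 and is enriched in smooth muscle, had 1.75 and 1.37 TPM. The other 5 were below the level: Rmst (0.72 and 0.41 TPM), Lockd (0.20 and 0.08 TPM), Mirt1 (0.06 and 0.06 TPM), and Fendrr and Rubie with no count. The better known heart RNAs Mhrt (19.6 and 22.1 TPM) and Hand2os1 (48.9 and 38.3 TPM) are annotated with other transcript types and do not belong to the class.

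Protein-coding neighbours were nearer and more often active for the 146 genes than for the class genes below the level. Of the 146, 121 overlapped no protein-coding gene and had a median gap of 9.88 kb to the nearest, against 54.8 kb for 5390 of the 5903. A protein-coding gene started on the opposite strand within 1 kb of the start of 30 of the 146 genes (20.5%), against 326 of the 5903 class genes below the level (5.52%). All 30 partners were at 1 TPM or more in heart, with a median of 12.1 TPM. For the 326 class genes below the level, 213 partners were at 1 TPM or more, with a median of 2.99 TPM over all 326. The nearest protein-coding gene was at 1 TPM or more for 111 of the 146 (76.0%), against 3176 of the 5903 (53.8%). A protein-coding gene ended within 5 kb upstream on the same strand of 14 of the 146 (9.59%), against 181 of the 5903 (3.07%). Overlap with a protein-coding gene on the opposite strand was found for 16 of the 146 (11.0%) and 432 of the 5903 (7.32%), and on the same strand for 9 (6.16%) and 104 (1.76%). The levels of overlapping genes, such as Gm49749 inside Pcnx, are uncertain, since the sources do not say how shared reads were counted.

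In the head-to-head pairs the protein-coding partner was usually the higher. It exceeded the lincRNA in both libraries in 27 of 30 pairs, and the lincRNA exceeded it in the other 3, Rmrp with Ccdc107, Gas5 with Zbtb37, and A430046D13Rik with Myl6b. Across the 30 pairs the levels were unrelated in rank (Spearman's rho -0.03, a description over pairs from the same 2 libraries). Partners with known roles in heart included Tbx5, a transcription factor of cardiac septation, at 7.84 and 9.60 TPM, beside Gm43050 at 2.80 and 5.22 TPM. Eno3, the muscle enolase, had 590 and 661 TPM beside Gm12319 at 5.03 and 5.21 TPM. In both pairs the libraries of lincRNA and partner do not overlap. Kcnk3, a background potassium channel, had 93.4 and 97.7 TPM beside Gm9899 at 3.37 and 3.10 TPM. Pacsin3, a membrane-bending protein of muscle, had 61.0 and 60.4 TPM beside Gm17281 at 2.23 and 2.15 TPM. In 6 of the 30 pairs the genes overlap at their 5′ ends, namely Rmrp, Gas5, Lppos, Gm9899, Gm17281 and Mkln1os with their partners. The starts of Gm17281 and Gm9899 lie 41 and 449 bases from those of their partners.

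Other pairs joined lincRNAs to genes of general function. Gm43672 averaged 9.17 ± 0.339 TPM beside the corepressor gene Tbl1xr1 at 24.4 ± 0.304 TPM. 2010320M18Rik averaged 5.73 ± 1.57 TPM beside Pik3r2, a regulatory subunit of PI3 kinase, at 7.46 ± 1.02 TPM. Lppos averaged 5.14 ± 0.474 TPM beside the focal adhesion gene Lpp at 8.39 ± 0.0354 TPM. All 3 partners were the higher gene, by the least for Pik3r2. 5031425E22Rik averaged 4.91 ± 0.339 TPM beside Kmt2e at 14.3 ± 0.544 TPM, C030037D09Rik 3.64 ± 0.219 TPM beside the RNA-binding protein gene Msi2 at 72.8 ± 1.36 TPM, and Snhg1 4.28 ± 1.48 TPM beside the amino acid transporter subunit gene Slc3a2 at 14.9 ± 0.389 TPM (each SD, n = 2). Between the animals, the log2 ratio had the same sign in lincRNA and partner in 14 of the 29 pairs with 50 or more counts on both sides (Spearman's rho 0.19, a description).

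**Figure D3:**
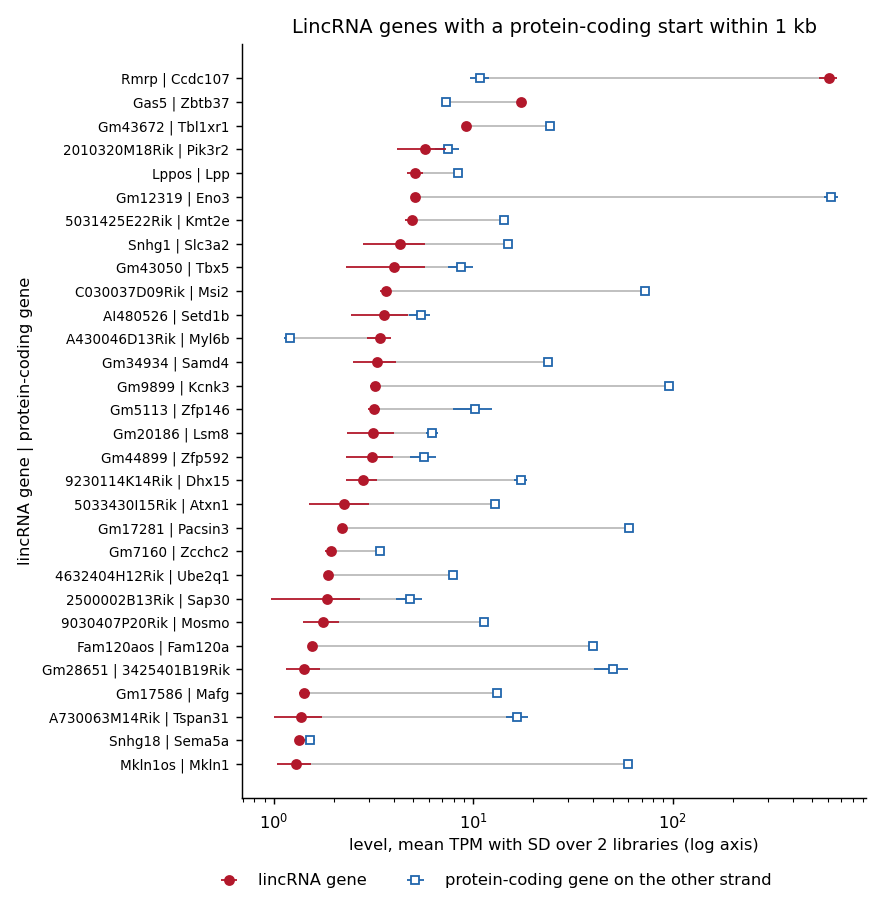
Mean TPM with SD over 2 libraries, on a log axis, of the 30 lincRNA genes (filled circles) and the protein-coding genes that start within 1 kb on the other strand (open squares), sorted by the level of the lincRNA. The squares lie to the right in 27 pairs, farthest for Gm12319 with Eno3 at 626 TPM.

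Promoters of the head-to-head genes were rich in CpG. RefSeq promoters of 300 bases were available within 1 kb of the GENCODE start for 18 of them. Their median GC content was 72.0%, against 53.3% in the 51 other lincRNA genes with a promoter and 52.7% over all promoters of the table, with medians of 32.5, 10 and 7 CpG. The GC box GGGCGG, searched on both strands, was present in 13 of the 18 (72.2%), in 22 of the 51 (43.1%) and in 35.7% of all promoters. The TATA box TATAAA was present in 1 of the 18 (5.56%), in 13 of the 51 (25.5%) and in 13.6% of all. The CCAAT box CCAAT was present in 4 of the 18 (22.2%), in 24 of the 51 (47.1%) and in 37.4% of all, and the E-box CACGTG in 4 of the 18 (22.2%), 3 of the 51 (5.88%) and 7.15% of all. Such matches are descriptions of letters, not of bound factors. The promoters of the 4 head-to-head genes with the highest level and a RefSeq start within 200 bases of the GENCODE start follow, in the direction of the lincRNA and with GC boxes on either strand in capitals.
Gas5 (chr1:161034351-161034650, plus strand, partner Zbtb37): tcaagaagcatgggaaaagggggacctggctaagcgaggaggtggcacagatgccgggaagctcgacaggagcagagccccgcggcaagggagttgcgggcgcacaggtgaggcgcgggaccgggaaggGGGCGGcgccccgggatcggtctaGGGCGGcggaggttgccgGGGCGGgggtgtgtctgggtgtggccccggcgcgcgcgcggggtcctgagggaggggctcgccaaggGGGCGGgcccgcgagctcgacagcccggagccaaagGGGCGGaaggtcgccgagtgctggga
2010320M18Rik (chr8:70776612-70776911, plus strand, partner Pik3r2): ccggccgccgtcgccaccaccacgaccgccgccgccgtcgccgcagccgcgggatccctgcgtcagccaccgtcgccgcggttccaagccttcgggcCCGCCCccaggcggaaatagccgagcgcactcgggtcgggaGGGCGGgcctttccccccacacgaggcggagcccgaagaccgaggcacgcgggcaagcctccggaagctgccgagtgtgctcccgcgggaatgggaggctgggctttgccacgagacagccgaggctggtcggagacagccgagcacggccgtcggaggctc
Lppos (chr16:24393606-24393905, minus strand, partner Lpp): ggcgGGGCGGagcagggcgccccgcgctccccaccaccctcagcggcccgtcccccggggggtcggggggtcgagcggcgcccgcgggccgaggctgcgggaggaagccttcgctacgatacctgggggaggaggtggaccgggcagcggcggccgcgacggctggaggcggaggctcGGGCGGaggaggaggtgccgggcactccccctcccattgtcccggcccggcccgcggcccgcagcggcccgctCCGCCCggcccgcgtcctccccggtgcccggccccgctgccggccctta
Snhg1 (chr19:8723237-8723536, plus strand, partner Slc3a2): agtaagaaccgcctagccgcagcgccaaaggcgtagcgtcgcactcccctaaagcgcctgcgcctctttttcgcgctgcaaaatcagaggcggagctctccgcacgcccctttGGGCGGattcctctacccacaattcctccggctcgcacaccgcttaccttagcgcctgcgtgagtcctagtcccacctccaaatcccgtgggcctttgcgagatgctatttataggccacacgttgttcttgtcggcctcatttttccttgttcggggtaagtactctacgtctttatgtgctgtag
Gas5 holds 5 GC boxes, Lppos 3, 2010320M18Rik 2 and Snhg1 1, and none of the 4 holds the CCAAT letters.

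Some expressed lincRNAs lay near heart genes without meeting them head to head. Gm34030, 7.06 kb from Hand2, a transcription factor of the developing ventricle, had 5.41 TPM in replicate 1 and 5.72 TPM in replicate 2, with Hand2 at 20.4 and 15.7 TPM. AC158549.1, 7.92 kb from the beta-1 adrenergic receptor gene Adrb1 (6.8 and 6.87 TPM), had 7.72 and 8.27 TPM. For the first pair the neighbour was higher, and for the second the lincRNA was slightly higher in both libraries. AC119982.1, 6.50 kb from Vldlr, a lipoprotein receptor gene (89.5 and 93.6 TPM), had 3.09 and 4.18 TPM. Lncppara, 27.5 kb from Ppara, a regulator of fatty acid oxidation (27.5 and 23.9 TPM), had 2.15 and 2.07 TPM. Crnde, 1.51 kb from the Iroquois gene Irx5 (2.88 and 3.54 TPM), had 1.01 and 2.29 TPM. Within 100 kb of each other, 15 of the 146 genes formed 8 pairs, among them Malat1 with Neat1, Bvht with Carmn, and Lncpint with 2210408F21Rik.

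The longest transcripts of the 146 genes were longer, and more often had a single exon, than those of the class genes below the level. The longest transcript of a gene had a median of 1687 bases, against 1000 in the 5903 class genes below the level and 3461 in expressed protein-coding genes. It had a median of 2 exons, against 3 in the class genes below the level and 8 in expressed protein-coding genes. The longest transcript had a single exon in 36 of the 146 (24.7%), against 7.10% of the class genes below the level. Those 36 genes had a median level of 4.52 TPM, with 10 genes at 10 TPM or more. The 110 genes whose longest transcript has several exons had 2.77 TPM, with 12 such genes. The 36 are not all genes of a single exon: 3110039I08Rik is among them with 48 transcripts over 389918 bases. Median GC content was 46.8% in the 146 genes, 45.9% below the level and 49.8% in expressed protein-coding genes.

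More than 1 transcript was annotated for 91 of the 146 genes, up to 48. The leading transcript was the same in both animals for 70 of the 91 and held over 50% of the gene in both animals for 55. For Neat1, whose longest transcript has 20771 bases, it was the 3004-base Neat1-202. Its deposited transcript share was 87.3% in replicate 1 and 89.9% in replicate 2. For 1810058I24Rik the leading transcript was 1810058I24Rik-201, with 87.9% and 89.5%, and for 1700020I14Rik 1700020I14Rik-202, with 66.4% and 67.2%. Malat1-201 held 33.8% of Malat1 in both libraries, but 61.2% in the second quantification. Over 32 genes named here with several transcripts, the leading share moved by more than 10 percentage points between the quantifications for 18. These 18 include Gm11008 and Gm10076, both with a leading share of 100% in the RSEM layout. The second quantification listed both genes at 0 TPM, so their shares cannot be compared and are no sign of a moved share. The same leading transcript was found in both quantifications for 66 of the 91. Of the genes named by rule where it differed, Gas5 was led by Gas5-224 (36.5% ± 9.15) in the RSEM-layout table and by Gas5-221 (44.4%) in the second quantification, and 2210408F21Rik by 2210408F21Rik-210 (28.7% ± 3.49) and 2210408F21Rik-206 (30.03%). In all, the leading transcript differed for 23 of the 91 and could not be compared for 2. Among these 23 were AC158549.1, AW112010, Gm31659 and 5 more small RNA hosts, Snhg20, Snhg1, Snhg5, Snhg12 and 1110038B12Rik. AC121821.1, 2900076A07Rik, Lncppara and Crnde also belonged to them. For 1110038B12Rik the share of 1110038B12Rik-201 was 80.8% in the RSEM layout and 32.1% in the second quantification.

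The 2 quantifications of the same reads gave similar levels for most genes. Of the 146 genes, 118 were within 1.5-fold of each other on the log2(mean TPM + 0.1) scale, and the median log2 ratio, RSEM layout over second quantification, was -0.02, against 0.09 for all genes at 1 TPM in both libraries. At least 2-fold higher in the RSEM layout were 8 of the 146 (background 2.96% of 11603 genes), and at least 2-fold higher in the second quantification were another 8 (background 0.621%). The level that selected the genes is on 1 side of this ratio, so nothing is read from those counts. For Gm49207, Gm11008, Gm10076, Gm47101 and Gm33424 the second quantification listed 0 in both libraries, where the RSEM layout averaged 12.3 ± 6.67, 11.9 ± 0.0212, 10.6 ± 0.198, 3.77 ± 1.40 and 1.22 ± 0.0849 TPM. In the other direction, AC121821.1 averaged 1.90 ± 0.0141 TPM in the RSEM layout and 43.3 TPM in the second quantification, Gm20186 3.15 ± 0.834 and 37.6 TPM, Gm43305 4.56 ± 0.318 and 17.8 TPM, Snhg20 4.83 ± 0.785 and 16.1 TPM, and Gm49083 1.63 ± 0.106 and 4.02 TPM.

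Some of the genes that disagreed share sequence with other genes, and others share little. For 12 of the 146 genes, 50% or more of the 31-base words also occur in sense in transcripts of another gene, and 7 of those 12 differed at least 2-fold between the quantifications, against 9 of the other 134. Gm49207 shares 83.1% of its words with Ahsa1, a cochaperone gene at 44.3 ± 0.962 TPM. Gm10076, a pseudogene in RefSeq, shares 82.2% with the ribosomal protein gene Rpl41 at 461 ± 5.395 TPM. Gm47101 shares 86.5% with the integrin gene Itga6, Gm49749 100% with Pcnx, and Gm11008 91.3% with the pseudogene Gm14416. Little is shared by AC121821.1 (11.0% of its words), Snhg20 (6.45%) and Gm33424 (0%), which also disagreed. Snhg20 shares 5.68% with the hosted scaRNA Gm26083, which averaged 21.8 TPM in the RSEM layout and 0 in the second quantification. AC121821.1 hosts Snora74a, at 221 and 223 TPM in the RSEM layout. Effective lengths also differ between the quantifications: the 281-base Rmrp has 181 effective bases in the RSEM layout and 92.5 in the second. The part of shared words, of hosted small RNAs and of effective length in the disagreement was not tested.

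**Figure D4:**
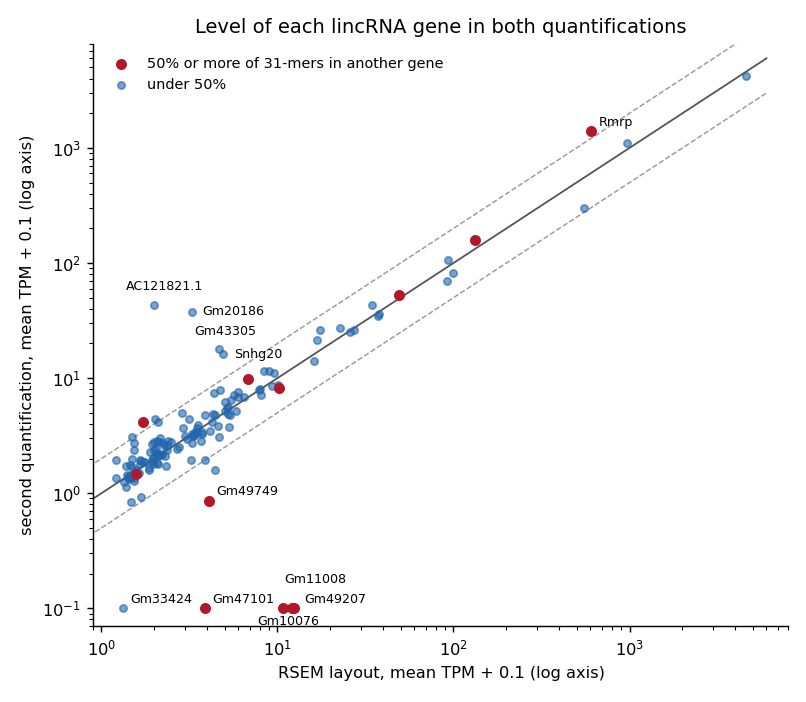
Mean TPM + 0.1 of each of the 146 lincRNA genes in the RSEM layout (horizontal, log axis) and in the second quantification (vertical, log axis), with the line of equality and dashed lines at 2-fold, and larger points for the 12 genes that share 50% or more of their 31-base words with another gene. Most points hug the line, 4 of the 12 lie at the bottom with 0 in the second quantification, and AC121821.1 and Gm20186 lie farthest above it.

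Between the animals, none of the deeply read lincRNA genes differed 2-fold. No test of a group difference is possible with 1 library per animal, so a gene was counted as differing when its counts summed to 200 or more, the TMM-scaled ratio of replicate 1 over replicate 2 was at least 2-fold, and its exact Clopper-Pearson interval with an error rate of 0.1%, which covers counting error only, left out 1. Of the 75 lincRNA genes with 200 or more counts, 0 met this, where 1.08% of all 10956 such genes did. The absolute log2 ratio of those 75 had a median of 0.11, and that of all genes with 200 or more counts also 0.11, with 39 higher in replicate 1 and 36 higher in replicate 2. Taking all 146 genes, whose summed counts ranged from 13 to 841426 with a median of 206, this figure was 0.21.

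The interval left out 1 for 9 of the 75 genes, and for 18.1% of all genes with 200 or more counts, whose depths differ. Neat1 was higher in replicate 1 at 1.33-fold (interval 1.25 to 1.42), Malat1 at 1.22-fold (1.19 to 1.24) and Rmrp at 1.19-fold (1.10 to 1.28). Gm26917, Gm49708 and 1700020I14Rik were higher in replicate 1 by less, from 1.06- to 1.08-fold. For Rmrp the second quantification went the other way, with 1286 TPM in replicate 1 and 1499 TPM in replicate 2. In the RSEM layout both Rmrp models together had 1210 and 1106 TPM. Gm42418, at a ratio of 0.899 (0.882 to 0.917), 2010320M18Rik at 0.690 (0.478 to 0.989) and AU020206 at 0.723 (0.563 to 0.927) were lower in replicate 1. Scaling by total counts brought 1 into the interval of Gm49708, and scaling by ERCC counts brought it into that of 2010320M18Rik. The erythroid, Lyz2 and lung markers given above were also higher in replicate 1, as were the 3 fat markers (Adipoq, Plin1 and Ucp1), which summed to 3.74 and 0.88 TPM, while the 3 atrial markers (Nppa, Myl7 and Sln) summed to 706 and 832 TPM. Their part in these differences was not tested. Lowering the minimum to 50 counts brought in 1 gene of 139, Gm49207, with 106 counts in replicate 1 and 44 in replicate 2, a ratio of 2.32 (1.29 to 4.38), where 2.31% of all 13566 genes passed. Gm49207 is among the genes listed at 0 in the second quantification. In that quantification Gm20186 differed instead, with 53.4 TPM in replicate 1 and 21.7 TPM in replicate 2 and a ratio of 2.27 (1.85 to 2.81), while its ratio in the RSEM layout was 1.47 (0.818 to 2.72).

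**Figure D5:**
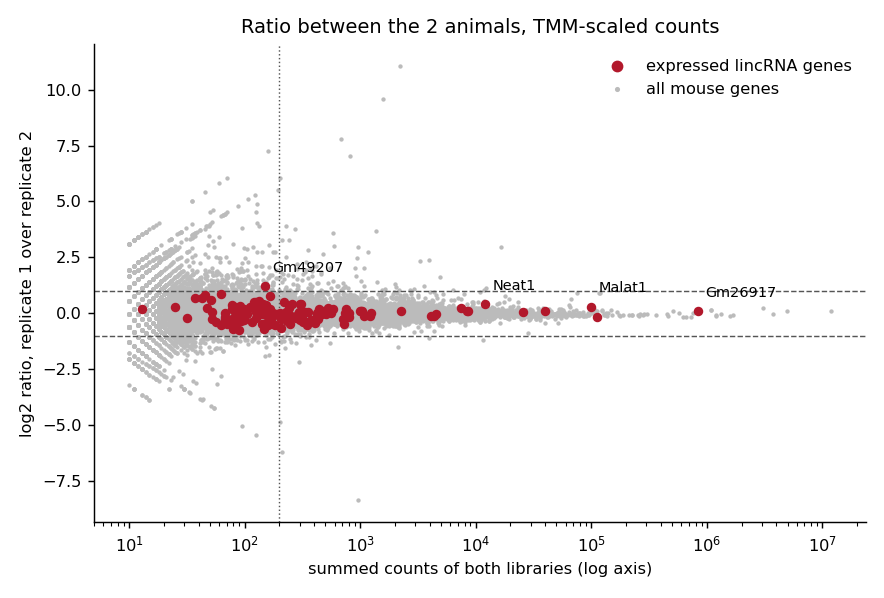
Log2 ratio of replicate 1 over replicate 2 from TMM-scaled counts (vertical) against the summed counts of both libraries (horizontal, log axis), for the 146 lincRNA genes (large points) and for all mouse genes with 10 or more counts (small points), with dashed lines at 2-fold and a dotted line at 200 counts. Right of the dotted line every lincRNA gene lies between the dashed lines, and only Gm49207 lies above them at lower counts.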

How the data were processed

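Per the file headers, the authors deposited gene and transcript tables in the RSEM layout with expected counts, TPM, FPKM and the percent share of each transcript, with the bounds of a credibility interval (unit signal) and a posterior standard deviation of the count (unit score), and a second transcript table in the kallisto layout with estimated counts and TPM. Deposited file listings name mm10 and GENCODE M21, while for tool versions the labels and headers used here hold nothing. Gene type, position and transcript sequence came from GENCODE M21, and promoters, microRNAs and gene classes from RefSeq (GRCm38.p6).

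The genes and lists were chosen with earlier results of these data known. The text names the 25 genes of highest mean TPM, listed genes, genes at the threshold, the 5 largest ratios between quantifications each way, genes called between animals, and up to 12 head-to-head genes; heart neighbours and genes whose intervals left out 1 were picked after their values were seen. Expected counts were rounded and scaled by TMM (edgeR 4.0.16) without spike-ins; DESeq2 1.42.0 size factors were an alternative. Intervals were exact Clopper-Pearson. The second quantification's TPM was summed per gene. Total expected counts were 42.1 and 40.1 M in replicates 1 and 2, and the difference between the libraries exceeded counting noise (chi-square 15.4 per degree of freedom over 17065 genes). Ratio calls were tested on simulated data. Protein sequences were not used here.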

Additional observations from a re-analysis of the deposited data

How the results depend on the processing

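With 1 group of 2 libraries, no result here has a test. The number of genes was 204 at 0.5 TPM, 85 at 2 TPM, 6049 with no filter on level, 173 by the second quantification and 120 when every transcript had to be a lincRNA, and 162 to 166 with either replicate left out. The share of TPM was 0.824% in the second quantification, 1.74% without mitochondrial and small structural RNAs in the total and 1.47% of expected counts (0.777% to 0.805% with 1 replicate left out). The median level was 2.92 TPM in the second quantification, a median FPKM of 2.43, and 2.79 to 3.12 TPM with 1 replicate left out. The genes called between the animals numbered 0 with DESeq2 size factors (1.06% of all genes tested), total counts (1.01%), ERCC totals (1.10%), a 1.5-fold limit (3.53%) and a 3-fold limit (0.438%), and 1 with 50 or more counts (2.31%), no count filter (0.844%) and the second quantification's counts (1.06%). The median absolute log2 ratio stayed between 0.15 and 0.22 over its alternatives. Same-strand genes ending upstream numbered 6 within 2 kb and 21 within 10 kb, and opposite-strand starts 32 within 2 kb and 34 within 5 kb. Of 46 named genes, 33 kept a level within 1.5-fold in the second quantification. No paired analysis was possible because there is only 1 group. Only 75 of the 146 genes had the 200 counts a call between animals needs. The cause was not tested for any of these changes.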
